A study of Mus musculus with 224 samples.

Results

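Vnn1 (vanin 1, ENSMUSG00000037440) was followed across every tissue, strain, diet and day of an RNA sequencing study of mice. The gene was found by its Ensembl identifier in the liver, soleus muscle and visceral adipose tissue tables, and it is 1 of 17494 genes listed in at least 1 of them. It was chosen by its liver level, which was higher on the high-fat diet, so the liver diet effect is given below as a description with no test. In build GRCm38 the gene lies on the plus strand at chr10:23894688-23905343 and has 2 annotated transcripts with up to 7 exons.

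The animals were inbred BALB/cJ mice, DBA/2J mice and C57Bl/6J mice. Each received either a high-fat diet (HFD) or, for comparison, regular chow (RC), and tissue was taken on day 5, 13 or 33 by the sample labels, whereas the series' design text gives 13 days for the last time as well. No transgene, deletion or drug is named for any group, and the labels give neither age nor sex. The 3 strains, 2 diets and 3 days formed 18 groups of 4 animals, 72 animals in all, and each animal gave a liver, a soleus and a visceral adipose library. Bulk tissue was sequenced, so fewer cells of a type and less RNA per cell cannot be told apart.

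Vanin 1 is a pantetheinase, an enzyme anchored to the outer face of the cell membrane by a lipid. It cleaves pantetheine, a breakdown product of coenzyme A, into pantothenate (vitamin B5), from which coenzyme A can be rebuilt, and the aminothiol cysteamine. In mouse liver the gene is known as a target of PPARα, the nuclear receptor that switches on fatty acid oxidation genes during fasting and high fat intake. Its closest relative in the mouse is Vnn3, a second pantetheinase gene, and biotinidase (Btd), which releases biotin, belongs to the same enzyme family.

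The depth per library was 1.81e+07 to 3.20e+07 reads for liver, 1.99e+07 to 3.34e+07 for soleus and 1.98e+07 to 4.68e+07 for adipose tissue. Levels are log2 CPM, reads scaled to library size on a log2 scale, so a difference of 1 is a 2-fold difference. Vnn1 drew 69 to 7377 reads per liver library (median 671.5), 1 to 410 per soleus library (median 10) and 20 to 9220 per adipose library (median 197). Its level therefore spanned 1.28 to 8.12 in liver, -3.07 to 4.09 in soleus and -0.48 to 8.77 in adipose tissue. The tables were normalized separately, so this order of tissues was not tested. Summed hepatocyte markers (Alb, Apoa1, Apoa2, Ttr, Serpina1a, Cps1 and Tat) reached 16.06 to 17.22 in every liver, and the 5 adipocyte markers 12.06 or more in all adipose libraries except those of animals 3HF201 and 3HF208.

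The promoters of the paralog Vnn3 and of a known PPARα target are printed because the liver genes most like Vnn1, given further on, include the PPARα targets Cyp4a10, Cyp4a14 and Slc25a20. The window runs from 250 bases before to 50 after the annotated start (RefSeq, GRCm38.p6). The Vnn3 window lies at chr10:23851212-23851511 and the window of Fabp1, the liver fatty acid binding protein, at chr6:71199629-71199928, both on the plus strand. Capitals mark a match to 2 copies of AGGNCA with 1 base between them, the direct repeat that PPARα binds with its partner RXR, searched on both strands.
Vnn3: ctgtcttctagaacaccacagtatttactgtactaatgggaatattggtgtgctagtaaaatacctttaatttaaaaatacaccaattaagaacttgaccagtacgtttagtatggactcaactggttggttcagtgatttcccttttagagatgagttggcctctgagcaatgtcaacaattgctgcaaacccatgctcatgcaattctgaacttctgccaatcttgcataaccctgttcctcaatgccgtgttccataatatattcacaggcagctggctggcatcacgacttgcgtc
Fabp1: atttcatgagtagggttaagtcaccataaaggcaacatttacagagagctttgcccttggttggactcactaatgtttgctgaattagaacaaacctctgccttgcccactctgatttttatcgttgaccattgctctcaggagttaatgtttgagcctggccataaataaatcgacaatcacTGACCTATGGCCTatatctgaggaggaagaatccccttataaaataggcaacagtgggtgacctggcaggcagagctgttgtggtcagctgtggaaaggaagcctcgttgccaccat
The motif was present in 125 of 32851 promoter windows (0.381%). Among the 22 windows of 20 PPARα targets it was present in 1, that of Fabp1, whose match starts at position -67. Of the 10 genes most like Vnn1 in liver only 6 had a window. No match was found in those or in the Vnn3 window, which says only that these letters are not there. Vnn1 itself had no window, so its own promoter was not searched.

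The mean level of Vnn1 in liver was higher on HFD than on RC in each strain and on each day, by 1.49-fold to 9.89-fold. Over all groups HFD livers averaged 5.88 ± 1.62 and RC livers 4.14 ± 0.94 (SD, 36 animals each). The difference was 1.75 ± 0.176 (SE) on the log2 scale. In 6 of the 9 combinations of strain and day all 4 HFD livers lay above all 4 RC livers. Of the 12611 liver genes tested, 21.2% were called for the overall diet contrast by which Vnn1 was chosen.

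Fabp2 and Lgals4, 2 genes of the intestinal marker list, moved with Vnn1 in liver. Of the 5 intestinal markers only these were measured there, while Cdh17, Krt20 and Vil1 were not listed for liver. The sum of Fabp2 and Lgals4 ranged from 6.36 to 9.51 in HFD livers (median 7.18) and from 5.86 to 7.42 in RC livers (median 6.52). This sum cannot tell intestinal tissue from expression of the 2 genes in liver itself. The correlations of marker sums with Vnn1 were taken after group means had been removed. Over 72 livers the sum correlated with Vnn1 at r = 0.28 and rho = 0.39 (permutation p = 0.0179 and 0.00077, adjusted p = 0.0298 and 0.00171 over 10 relations in the 3 tissues). The r was 0.36 without the 2 farthest livers and 0.20, 0.28 and 0.20 within 3 ranges of animal numbers that are described below. For the hepatocyte sum r was 0.17 and rho 0.23 (permutation p = 0.162 and 0.0528), and for 5 erythroid markers they were -0.02 and -0.05 (permutation p = 0.9 and 0.677). The part of these transcripts in the Vnn1 values was not tested.

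In DBA/2J livers the HFD values were tightly grouped at a high level on day 5 and day 33 and lower on day 13. On day 5 the HFD livers had Vnn1 levels of 7.60, 7.78, 7.90 and 8.05, against 4.49, 4.51, 4.59 and 5.10 in RC livers. On day 13 the levels were 4.74, 4.81, 5.29 and 5.51 on HFD, against 2.91, 3.94, 4.2 and 4.42 on RC. On day 33 they were 7.81, 7.81, 8.03 and 8.12 on HFD, against 4.2, 4.31, 4.88 and 5.17 on RC. The diets did not overlap on any of the 3 days. The differences were 3.16 on day 5, 1.22 on day 13 and 3.31 on day 33 (SE 0.528 each), which are 8.95-fold, 2.34-fold and 9.89-fold higher levels on HFD.

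In BALB/cJ livers the diets were apart on day 5 and overlapped later. There the HFD livers had levels of 6.19, 6.70, 7.46 and 7.60, against 1.92, 3.87, 4.53 and 4.72 in RC livers, with no overlap. On day 13 the levels were 2.37, 3.18, 3.93 and 4.58 on HFD, against 1.28, 2.41, 2.86 and 3.90 on RC. On day 33 they were 3.24, 3.54, 4.44 and 6.21 on HFD, against 2.63, 3.17, 4.32 and 4.53 on RC. The diets overlapped on both later days, and the single high HFD liver of day 33 was that of animal 3HF208. The differences were 3.23, 0.91 and 0.69 on days 5, 13 and 33 (SE 0.528 each). The day 33 difference was 0.08 without 3HF208, 0.35 without 3RC259 and 1.06 without 3HF259, and it was 1.51 with the range of animal numbers, described below, as a covariate. That of day 13 was 0.46 without 3RC230 and 0.55 without 3HF228.

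C57Bl/6J had the smallest average difference of the strains. On day 5 the HFD livers fell into 2 pairs, at 4.30 and 4.42 and at 6.31 and 6.50, against 4.43, 4.85, 4.97 and 4.99 in RC livers, so the lower pair lay below all RC livers. On day 13 the levels were 5.31, 5.45, 5.55 and 5.61 on HFD, against 3.90, 4.47, 4.61 and 4.72 on RC. On day 33 they were 5.06, 6.10, 6.37 and 7.92 on HFD, against 4.50, 4.75, 4.93 and 5.00 on RC. The diets were apart on both later days, with 1 high HFD liver, that of animal 1HF209, on day 33. The differences were 0.57, 1.05 and 1.57 on days 5, 13 and 33 (SE 0.528 each), and that of day 5 was 0.20 without 1HF225, 0.27 without 1HF227, 0.90 without 1HF249 and 0.93 without 1HF250.

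**Figure D1:**
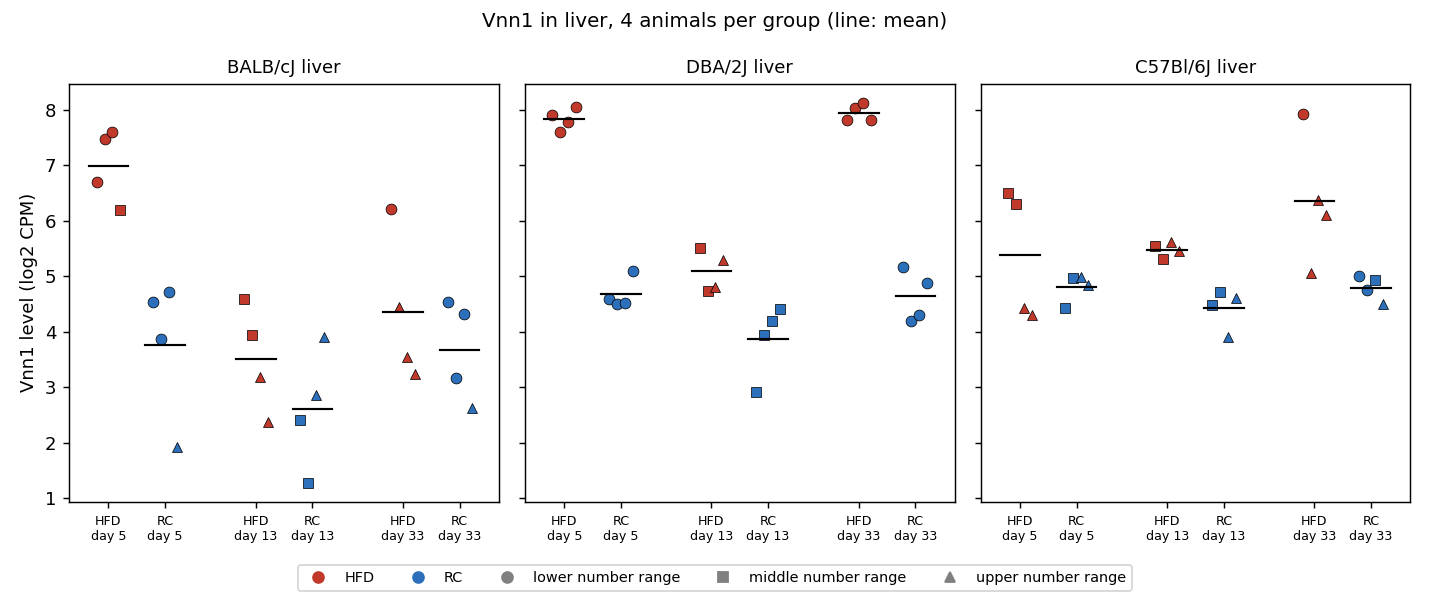
Vnn1 level in liver (log2 CPM) of every animal, by strain, day and diet, with HFD left of RC; lines are group means and the marker shape gives the range of animal numbers. All 8 DBA/2J livers on HFD at days 5 and 33 lie between 7.60 and 8.12, and the 4 at day 13 between 4.74 and 5.51.

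The p-values for liver Vnn1 in this report come from the values by which the gene was chosen and make no allowance for that choice. The diet effect on liver Vnn1 differed between strains in the fit of all groups (limma, F test, adjusted p = 0.0306), as it did for 15.7% of liver genes. The difference averaged 1.61 in BALB/cJ, 2.56 in DBA/2J and 1.06 in C57Bl/6J (SE 0.305 each). The DBA/2J effect exceeded that of C57Bl/6J by 1.5 ± 0.431 (SE, limma, adjusted p = 0.0163), a contrast in which 10.3% of liver genes were called. BALB/cJ minus C57Bl/6J was 0.55 (95% interval -0.32 to 1.41, adjusted p = 0.536 by limma), and BALB/cJ minus DBA/2J was -0.95 (-1.82 to -0.09, adjusted p = 0.161 by limma). The call for strains was lost without the liver of animal 2RC228 (adjusted p = 0.054 by limma).

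Between days the diet effect was 2.32, 1.06 and 1.85 on days 5, 13 and 33 (SE 0.305 each), and limma did not call this difference (adjusted p = 0.182, against 3.35% of genes called), although it did with the number range as a covariate (0.0375). Within BALB/cJ the difference between days was called (limma, adjusted p = 0.0466, against 4.09% of liver genes), but not with quantile normalization (0.0576), without the variance trend (0.053) or with the BALB/cJ animals alone (0.305). Within DBA/2J it was not (adjusted p = 0.135 by limma, against 3.38% of genes called), although limma called it from the DBA/2J animals alone (0.000891). In C57Bl/6J the adjusted p was 0.898 by limma (0.0159% of genes called). All DBA/2J animals of days 5 and 33 were of the lower range of animal numbers, described below, and none of day 13 was. Day and range therefore cannot be told apart within DBA/2J.

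Among HFD livers alone, Vnn1 differed between days (limma, F test, adjusted p = 3.6e-06), as did 18.9% of liver genes. The level on day 13 was lower than on day 5 by 2.04 on the log2 scale (-2.04 ± 0.305 (SE), adjusted p = 2.28e-06 by limma, against 13.6% of genes). On day 33 it was higher than on day 13 by 1.53 ± 0.305 (SE, adjusted p = 0.000392 by limma, against 10.7% of genes), and day 33 minus day 5 was -0.52 (95% interval -1.13 to 0.09, adjusted p = 0.356 by limma). With the range of animal numbers, described below, as a covariate, day 33 minus day 13 was 0.91 and was no longer called (adjusted p = 0.0529 by limma), and day 13 minus day 5 was -1.19 (0.00844). No animal of day 13 belonged to the lower of these ranges. Among RC livers the difference between days was not called (limma, F test, adjusted p = 0.116, against 10.4% of genes called), but it was without animal 3RC251 (0.0348).

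The numbers in the animals' names fall into a lower, a middle and an upper range with gaps between them, and the mean of liver Vnn1 on HFD differed between these ranges. The labels do not say what the ranges stand for, and this comparison was chosen after the values had been seen. HFD livers had a level of 7.62 ± 0.56 in the lower range (SD, n = 13, lowest 6.21, highest 8.12), 5.40 ± 0.86 in the middle range (SD, n = 9, lowest 3.93, highest 6.50) and 4.59 ± 1.18 in the upper range (SD, n = 14, lowest 2.37, highest 6.37). RC livers had 4.51 ± 0.49 (SD, n = 16), 3.88 ± 1.18 (SD, n = 11) and 3.79 ± 1.09 (SD, n = 9) in the same order. On HFD only the lowest liver of the lower range, at 6.21, lay below the highest of the middle and upper ranges, whereas on RC all 3 ranges overlapped.

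The same split ran through single groups. The lower C57Bl/6J pair of HFD day 5 came from the upper range and the higher pair from the middle range. The high HFD livers of day 33, 1HF209 at 7.92 and 3HF208 at 6.21, were the only lower-range animals in their groups. All 8 DBA/2J animals on HFD at days 5 and 33 were of the lower range, and those of day 13 were 2 of the middle and 2 of the upper range.

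Within combinations of strain and day that hold both diets in a range, HFD minus RC was 3.03 ± 0.144 (SE, 13 HFD and 16 RC livers) in the lower range, 1.53 ± 0.238 (SE, 8 HFD and 10 RC) in the middle range and 0.44 ± 0.289 (SE, 12 HFD and 8 RC) in the upper range. In the lower range the difference was 2.66 in BALB/cJ, 3.23 in DBA/2J and 3.04 in C57Bl/6J, the last from 1 HFD and 2 RC livers. In the middle range it was 2.41 in BALB/cJ, 1.26 in DBA/2J and 1.27 in C57Bl/6J, and in the upper range 0.13 in BALB/cJ and 0.63 in C57Bl/6J. These differences by range are descriptions, with no test. A model with a diet effect for each range was also chosen after the values had been seen, and it held 33 HFD and 34 RC livers. In that model the difference between strains had an adjusted p of 0.925 by limma. Every DBA/2J animal of days 5 and 33 was of the lower range, so strain and range cannot be told apart there.

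**Figure D2:**
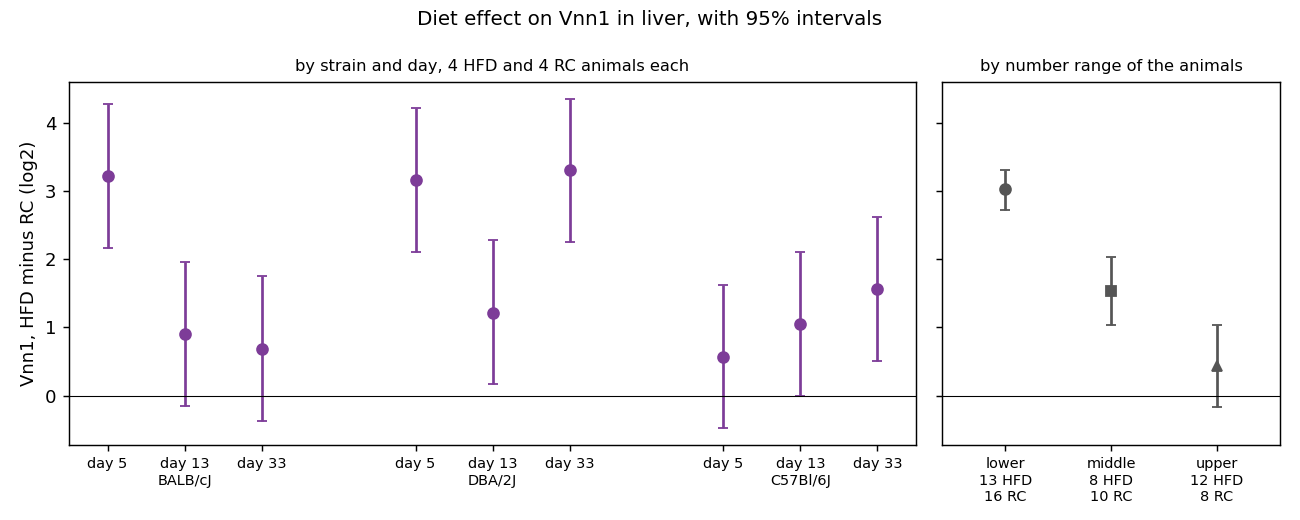
HFD minus RC for liver Vnn1 (log2) with 95% intervals, by strain and day on the left and by range of animal numbers on the right. The differences by range stand at 3.03, 1.53 and 0.44, and those by strain and day between 0.57 and 3.31.

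On RC the lowest mean of Vnn1 was that of BALB/cJ in all 3 tissues. In soleus the strain differences were no longer called without 19 libraries high in hepatocyte markers, as described below. In RC livers the level was 3.34 ± 1.13 in BALB/cJ (lowest 1.28, median 3.52, highest 4.72), 4.39 ± 0.59 in DBA/2J (2.91, 4.46 and 5.17) and 4.68 ± 0.32 in C57Bl/6J (3.90, 4.74 and 5.00; SD, n = 12 each). BALB/cJ livers were lower than C57Bl/6J livers by 1.33 on the log2 scale (-1.33 ± 0.305 (SE), adjusted p = 0.00025 by limma), where 46.8% of genes were called. They were lower than DBA/2J livers by 1.05 (-1.05 ± 0.305 (SE), adjusted p = 0.00409 by limma, against 42.1% of genes). The strains overlapped in range, and the lowest 2 BALB/cJ livers came from the middle and upper number ranges. DBA/2J minus C57Bl/6J was -0.29 (95% interval -0.90 to 0.33, adjusted p = 0.458 by limma, against 48.1% of genes called). With the number range as a covariate the differences were -1.77 (adjusted p = 1.07e-07), -0.71 (0.0194) and -1.07 (0.00154), all by limma. The last of them was then called. This covariate shifts both diets alike, although the ranges lay further apart on HFD than on RC. Every DBA/2J animal of days 5 and 33 was of the lower range, so the covariate cannot tell strain from range there.

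On HFD the order of the strains in liver was DBA/2J, C57Bl/6J and BALB/cJ from high to low. BALB/cJ livers averaged 4.95 ± 1.80 (lowest 2.37, median 4.51, highest 7.60), DBA/2J livers 6.96 ± 1.40 (4.74, 7.79 and 8.12) and C57Bl/6J livers 5.74 ± 0.99 (4.30, 5.58 and 7.92; SD, n = 12 each). BALB/cJ was lower than DBA/2J by 2.0 (-2.0 ± 0.305 (SE), adjusted p = 2.72e-07 by limma, against 32.7% of genes) and lower than C57Bl/6J by 0.79 (-0.79 ± 0.305 (SE), adjusted p = 0.0307, against 44.2%). DBA/2J was higher than C57Bl/6J by 1.21 ± 0.305 (SE, adjusted p = 0.000894 by limma, against 42.7%). With the number range as a covariate, which has the limits given for RC, this difference was 0.33 (adjusted p = 0.403 by limma). The call of BALB/cJ against C57Bl/6J was lost when any of the animals 1HF209, 1HF225, 1HF227, 3HF224, 3HF254, 3HF258 or 3HF259 was left out, the adjusted p then reaching up to 0.0903. Reads of all strains were mapped to 1 genome build, and the part of sequence differences between strains in these values was not tested.

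The paralog Vnn3, whose end lies 24845 bases before the start of Vnn1, was also lowest in BALB/cJ and was not called for diet. In RC livers Vnn3 stood at 4.57 ± 0.50 in BALB/cJ, 6.08 ± 0.21 in DBA/2J and 5.99 ± 0.29 in C57Bl/6J (SD, n = 12 each), and no BALB/cJ value reached the lowest value of the other strains. The differences were -1.42 against C57Bl/6J (adjusted p = 1.48e-14, against 46.8% of genes called) and -1.51 against DBA/2J (2.37e-15, against 42.1%), both by limma. The share of all genes that keep BALB/cJ apart in this way was not counted. By diet, HFD livers had a Vnn3 level of 5.65 ± 0.85 and RC livers of 5.55 ± 0.78 (SD, 36 animals each), a log2 difference of 0.10 (adjusted p = 0.338 by limma). Btd was at 6.26 on HFD and 6.21 on RC on average (0.05, adjusted p = 0.301 by limma), and in DBA/2J it rose by 0.18 (adjusted p = 0.0268). The 3 nearest tested genes on each side of Vnn1 were Rps12, Slc18b1 and Vnn3 before it and Stx7, Moxd1 and Ccn2 after it. Of these, limma called only Slc18b1, a vesicular amine transporter gene, for diet over all groups (0.23, adjusted p = 0.0152). Over all liver genes 21.2% were called for that contrast, so so few genes do not set this region apart.

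**Figure D3:**
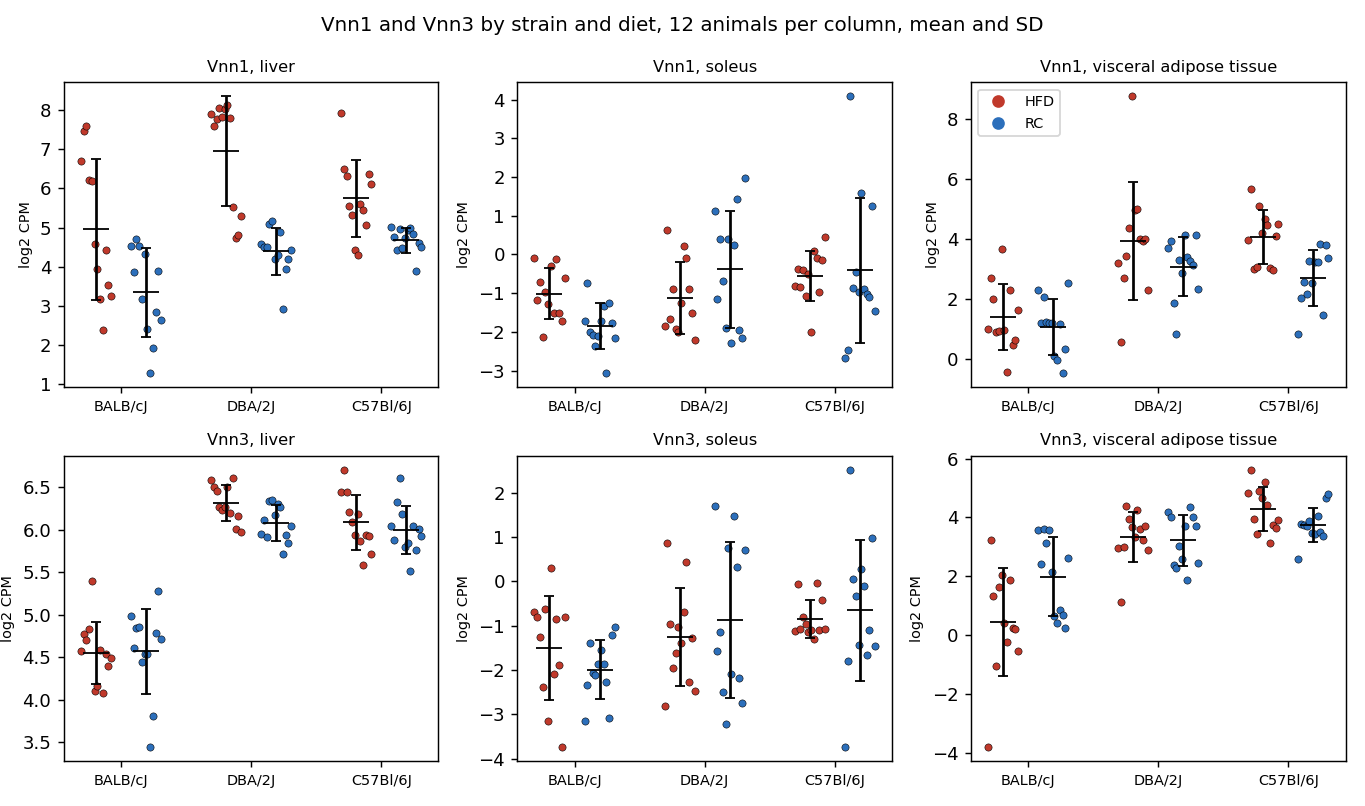
Vnn1 (top) and Vnn3 (bottom) in liver, soleus and visceral adipose tissue, in log2 CPM, with HFD left of RC in each strain; points are animals, lines the mean and bars the SD of 12 animals. In liver all BALB/cJ values of Vnn3 lie at or below 5.39 and all others at or above 5.51.

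Genes that make and turn over coenzyme A were called for diet at a share close to the 21.2% of all liver genes. Of 12 measured members in liver, 2 were higher on HFD, 1 was lower and 9 were not called, with a median difference of 0.02, against a median of 0.007 and 10.9% higher and 10.3% lower calls over all genes. Ppcs, which joins phosphopantothenate to cysteine, rose by 0.19 (adjusted p = 0.00158 by limma), and Coasy, the enzyme of the last steps of the pathway, rose by 0.10 (0.0183). Pank3, a pantothenate kinase, fell by 0.28 (adjusted p = 8.54e-05 by limma). The other pantothenate kinases were at 0.01 (Pank1), 0.06 (Pank2) and 0.01 (Pank4). Ppcdc, the decarboxylase of the pathway, was at 0.03, the coenzyme A diphosphatases Nudt7 and Nudt19 at -0.01 and -0.11, and the vitamin transporter Slc5a6 at -0.29. Slc25a42, the mitochondrial coenzyme A carrier, was at 0.10 and Aasdhppt, which attaches the phosphopantetheine group to proteins, at 0.05. None of these 9 passed the threshold (adjusted p 0.0881 or higher by limma).

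Among genes that handle cysteamine, cysteine and taurine, 1 of 7 measured members was higher on HFD, 4 were lower and 2 were not called (median -0.14), against 10.9% higher and 10.3% lower calls over all liver genes. Ado, which oxidises the cysteamine that vanins release, rose by 0.11 (adjusted p = 0.0214 by limma). Csad, which makes hypotaurine from cysteine sulfinate, fell by 0.74 (4.23e-06), and Cdo1, which makes that sulfinate, fell by 0.14 (0.0396). Fmo1, a flavin monooxygenase that oxidises hypotaurine, fell by 0.18 (0.0176) and the taurine transporter Slc6a13 fell by 0.17 (9.38e-05). With quantile normalization Cdo1 was at -0.04 (adjusted p = 0.597 by limma) and Fmo1 at -0.13 (0.0769), and with the number range as a covariate Cdo1 was at -0.14 (0.0534), so these calls were lost there. The taurine transporter Slc6a6 was at -0.13 (0.188) and Baat, which couples bile acids to taurine, at -0.05 (0.362). The Csad difference was -1.21 in BALB/cJ, 0.25 in DBA/2J (not called, adjusted p = 0.429) and -1.27 in C57Bl/6J, and it differed between strains (limma, adjusted p = 0.000163).

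Of 6 measured genes of glutathione metabolism 2 were higher on HFD and 1 was lower, against 10.9% and 10.3% of all liver genes. Gclc, the catalytic subunit of glutamate cysteine ligase, rose by 0.37 (adjusted p = 0.000247 by limma) and glutathione reductase Gsr rose by 0.15 (0.00187). Ggt6, of the gamma-glutamyltransferase family, fell by 0.26 (0.0017), and the modifier subunit Gclm was at -0.05 (0.311). In DBA/2J 2 of the 6 were higher, 1 was lower and 3 were not called, against 10.6% higher and 11% lower over all genes. There Gclc rose by 1.04 (2.66e-08), Gsr rose by 0.51 (2.37e-08) and Ggt6 fell by 0.48 (0.000892, all by limma).

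PPARα target genes other than Vnn1 were higher on HFD in 18 of 26 cases and lower in none, with a median difference of 0.36. Over all liver genes 10.9% were higher. Among the members with the smallest p values were Aldh3a2, a fatty aldehyde dehydrogenase (0.82, adjusted p = 8.93e-10 by limma), Hadha of the mitochondrial trifunctional protein (0.28, 2.97e-08) and the fatty acid omega-hydroxylase Cyp4a14 (3.02, 1.41e-07). Angptl4, an inhibitor of lipoprotein lipase, was the only member below 0 (-0.16, adjusted p = 0.337). Reads of the Cyp4a genes can be split among near-identical copies. The list was drawn up with earlier results of these animals known, so its direction is no independent evidence.

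By strain, 2 of the 26 PPARα targets were higher and 2 lower in BALB/cJ (7.89% and 6.91% of all genes), 20 were higher and none lower in DBA/2J (10.6% and 11% of all genes), and 1 was higher and none lower in C57Bl/6J (1.02% and 1.28% of all genes). In DBA/2J the peroxisomal enzymes Ehhadh and Acaa1b rose by 2.06 (adjusted p = 6.6e-11 by limma) and 1.80 (3.53e-11), and Aldh3a2 by 1.74 (1.64e-12). Fabp1, whose promoter is printed above, rose by 0.63 there (adjusted p = 0.000215 by limma). In BALB/cJ the members that passed were Cyp4a14 (2.64), Cyp4a31 (1.79), Angptl4 (-0.81) and the peroxisome gene Pex11a (-0.49).

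Of 11 measured genes of the receptors and their partners none was higher and 2 were lower on HFD over all strains, against 10.9% and 10.3% of all liver genes, a share of lower calls close to that background. Ppargc1a, a coactivator of mitochondrial genes, fell by 0.42 (adjusted p = 0.00151 by limma) and Lpin1, a phosphatidate phosphatase that also acts as a coactivator, fell by 0.93 (0.00197). Ppara itself was at 0.09 (adjusted p = 0.436), the retinoid receptor Rxrg at 0.20 (0.105) and the coactivator Ppargc1b at -0.26 (0.126).

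The PPARα targets also differed in size between the number ranges. Their median difference between diets was 0.71 in the lower, 0.37 in the middle and 0.05 in the upper range, while the median of all 12611 genes was 0.01 in each. Cyp4a10 stood at 4.55, 1.03 and 0.38 in the same order, Cyp4a14 at 5.90, 1.83 and 0.58, and carnitine acetyltransferase (Crat) at 1.28, 0.44 and -0.15. Vnn3 stood at 0.16, 0.22 and -0.18. These values are descriptions, since the ranges were examined after the values had been seen.

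The genes whose liver levels moved most like Vnn1 from animal to animal, after group means had been removed, were led by Crat. Among 6106 genes at or above the median level, the 10 with the highest Pearson r over 72 livers were Crat (0.82), the phosphatidylcholine transfer protein Pctp (0.79), Cyp4a10 (0.77), Cyp4a14 (0.75), the carnitine carrier Slc25a20 (0.71), Mmd (0.71), the lipid droplet gene Fitm2 (0.70), the trifunctional protein subunit Hadhb (0.69), the peroxisomal reductase Decr2 (0.69) and the peroxisome assembly factor Pex19 (0.69). Spearman's rho for these genes was between 0.62 and 0.73, and 7 of the 10 were also among the top 10 by rho. All values for 1 animal come from the same library, and these correlations are descriptions of genes picked for a high value. Within strains Crat had an r of 0.89 in BALB/cJ, 0.58 in DBA/2J and 0.85 in C57Bl/6J (24 livers each), and within diets 0.82 on HFD and 0.81 on RC. With the means of the number ranges also removed, r was 0.70 for Crat and 0.27 to 0.59 for the other 9.

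**Figure D4:**
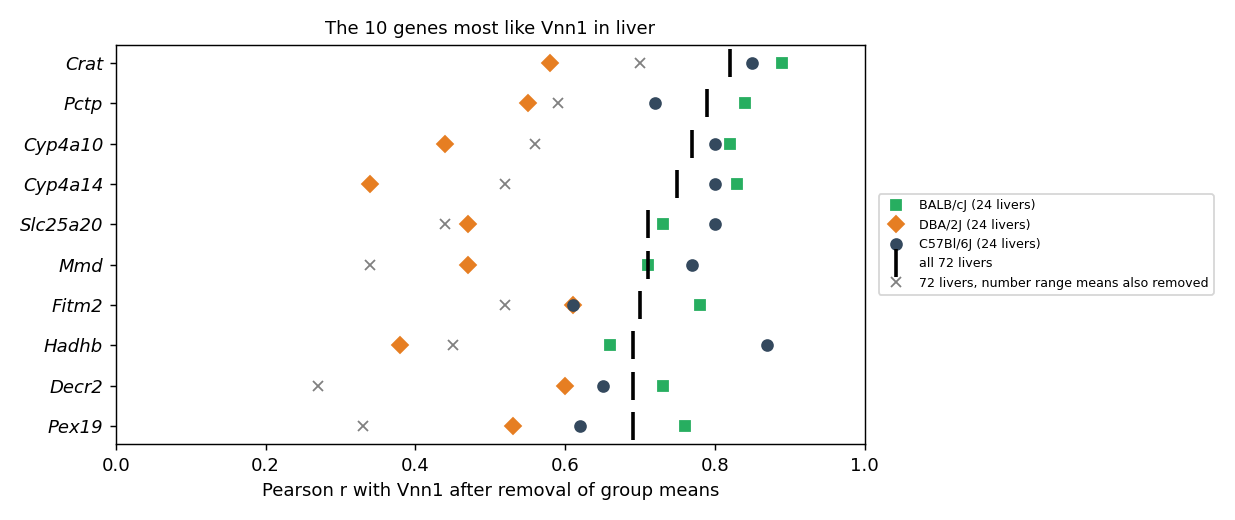
Pearson r with Vnn1 (horizontal axis, no unit) in liver after removal of group means, for the 10 genes most like it; symbols show each strain, all 72 livers, and 72 livers with the means of the number ranges also removed. Crat has the highest r over all livers, 0.82, and Cyp4a14 the lowest in DBA/2J, 0.34.

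Over the 18 group means the genes most like Vnn1 were partly others. Chmp3 of the endosomal sorting machinery (0.91) and Mmd (0.90) led, followed by the mitochondrial reductase Decr1 (0.88), Sh3bgrl2 (0.87), the mitochondrial tyrosyl-tRNA synthetase Yars2 (0.86), Decr2 (0.86), Cyp4a14 (0.86), the ubiquitin ligase Siah2 (0.85), the enoyl-CoA isomerase Eci1 (0.85) and Pctp (0.83). Within groups Chmp3 and Yars2 had an r of 0.06 and -0.07. By rho, 4 of these 10 genes were again in the top 10.

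In visceral adipose tissue Vnn1 was lower in BALB/cJ than in the other strains. On RC the level was 1.07 ± 0.94 in BALB/cJ (lowest -0.48, median 1.2, highest 2.53), 3.08 ± 0.98 in DBA/2J (0.84, 3.29 and 4.14) and 2.69 ± 0.94 in C57Bl/6J (0.82, 2.89 and 3.84; SD, n = 12 each). On HFD it was 1.40 ± 1.12 in BALB/cJ (-0.44, 0.99 and 3.66), 3.94 ± 1.96 in DBA/2J (0.58, 3.96 and 8.77) and 4.07 ± 0.90 in C57Bl/6J (2.96, 4.16 and 5.69; SD, n = 12 each). BALB/cJ was lower on both diets, with overlap in range. The BALB/cJ libraries on HFD include those of 3HF201 and 3HF208, named above for low adipocyte markers. Their adipocyte sums were 6.12 and 6.70 and their hepatocyte sums 10.62 and 11.75, so they may hold little adipose tissue. Both were kept in the adipose strain and diet comparisons, and leaving out both together was not tested.

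On RC the BALB/cJ difference was -1.63 ± 0.425 against C57Bl/6J (SE, adjusted p = 0.0058 by limma, against 11.2% of genes) and -2.01 ± 0.425 against DBA/2J (SE, 0.000466, against 16.2%). On HFD it was -2.67 ± 0.425 against C57Bl/6J (SE, 2.37e-06 by limma, against 16.3%) and -2.54 ± 0.425 against DBA/2J (SE, 8.58e-06, against 22.6%). DBA/2J minus C57Bl/6J was 0.39 on RC (95% interval -0.46 to 1.24, adjusted p = 0.463 by limma, against 41.7%) and -0.13 on HFD (-0.98 to 0.72, adjusted p = 0.873, against 10.3%). Vnn3 was lower in BALB/cJ adipose tissue on RC as well, by 1.76 than in C57Bl/6J (-1.76, adjusted p = 0.00247) and by 1.23 than in DBA/2J (-1.23, 0.038, limma).

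Adipose Vnn1 was higher on HFD, where it averaged 3.13 ± 1.84, against 2.28 ± 1.28 in RC animals (SD, 36 animals each). The difference of 0.85 ± 0.245 (SE, 1.81-fold) passed the threshold by a small margin (adjusted p = 0.0417 by limma, against 2.67% of genes called). The call was lost when any of 35 of the 72 animals was left out, with an adjusted p of 0.0203 to 0.0679. The difference was 0.33 in BALB/cJ, 0.86 in DBA/2J and 1.37 in C57Bl/6J (SE 0.425 each), and limma called neither the difference between strains (adjusted p = 0.751, against 0.0846% of genes) nor that between days (0.855, against 0% of genes). The single highest library, that of DBA/2J animal 2HF209 on HFD at day 33, had a Vnn1 level of 8.77, against 4.37, 4.97 and 5.00 in the other animals of its group. That library had an intestinal marker sum of 13.24, with 150421 reads of the enterocyte gene Fabp2, whereas the other adipose libraries reached at most 6.91. Without it the diet difference was 0.74 (adjusted p = 0.0594).

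Markers of other cell types moved with adipose Vnn1, and these correlations were taken after group means had been removed. Over 72 libraries its correlation with the 4 mesothelium markers, summed, was r = 0.63 and rho = 0.67 (permutation p = 1e-05 each, the smallest possible, adjusted p = 2.86e-05 over 10 relations), with r = 0.60 without the 2 farthest libraries and 0.45, 0.74 and 0.83 within the number ranges. With the 5 B cell markers it was r = -0.61 and rho = -0.64 (permutation p = 1e-05 each, adjusted p = 2.86e-05), with r = -0.59 without the 2 farthest libraries and -0.49, -0.77 and -0.71 within the ranges. With the 5 adipocyte markers it was r = 0.37 and rho = 0.56 (permutation, adjusted p = 0.00294 and 2.86e-05), with r = 0.48 without the 2 farthest libraries and 0.35, 0.46 and 0.48 within the ranges. With the hepatocyte sum it was r = 0.28 and rho = 0.22 (permutation, adjusted p = 0.0298 and 0.0911), with r = 0.28 without the 2 farthest and 0.38, 0.19 and 0.20 within the ranges. With the intestinal sum it was r = 0.43 and rho = 0.27 (permutation, adjusted p = 0.00102 and 0.0372), but 0.11 and 0.18 without 2HF209 (permutation, adjusted p = 0.422 and 0.174). The part of adipocyte, hepatocyte and intestinal transcripts in adipose Vnn1 was not tested beyond leaving out that library. On RC the median mesothelium sum was 7.51 in BALB/cJ, 9.28 in DBA/2J and 8.06 in C57Bl/6J, and the median B cell sum 9.82, 3.45 and 10.36 in the same order. With the mesothelium sum as a covariate BALB/cJ on RC was at -1.36 against C57Bl/6J (adjusted p = 0.00116) and -1.27 against DBA/2J (0.00949). With the B cell sum it was at -1.99 (9.41e-06) and -1.50 (0.00126), all by limma. The diet difference was 0.89 (0.002) and 0.81 (0.00404) with these covariates. The genes most like Vnn1 within groups were Fmo5 (r = 0.77), monoamine oxidase Maoa (0.77), the keratin Krt19 (0.76), the coat protein gene Sec23a (0.76) and the transcriptional repressor Mxi1 (0.74), among 8049 genes over 72 libraries. None of 23 measured PPARα targets was called for diet by limma in adipose tissue, where 1.63% of genes were higher and 1.03% lower.

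In soleus muscle Vnn1 was near the detection limit and moved with liver transcripts in the library. HFD libraries averaged -0.90 ± 0.78 (lowest -2.21, median -0.90, highest 0.63) and RC libraries -0.88 ± 1.56 (-3.07, -1.2 and 4.09; SD, 36 animals each). The difference was -0.01 ± 0.276 (SE, 95% interval -0.56 to 0.54, adjusted p = 0.981 by limma, against 17.4% of genes called), and the diets overlapped in all 9 combinations of strain and day. Meanwhile 11 of 22 measured PPARα targets were higher on HFD in soleus (8.98% of all genes) and none was lower (8.39%), among them Hadha (0.47, adjusted p = 3.93e-11), Pex11a (0.43, 6.99e-11), Slc25a20 (0.42, 2.32e-09) and Acadm, an acyl-CoA dehydrogenase (0.35, 1.78e-08, limma).

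The 7 hepatocyte markers, summed, ranged from 0.27 to 10.41 in HFD soleus libraries (median 3.65) and from -0.08 to 12.92 in RC libraries (median 6.24). The correlation of this sum with Vnn1 was taken after group means had been removed. Vnn1 correlated with this sum at r = 0.75 and rho = 0.74 over 72 libraries (permutation p = 1e-05 each, the smallest possible, adjusted p = 2.86e-05 over 10 relations), with r = 0.73 without the 2 farthest libraries and 0.83, 0.76 and 0.69 within the number ranges. In the 19 libraries above a sum of 8 the median Vnn1 level was 0.22, and in the other 53 it was -1.33. The highest value, 4.09 in animal 1RC226, came from the library with the highest sum, 12.92. The genes most like Vnn1 in soleus were apolipoprotein E (Apoe, r = 0.84), Ftl1 (0.79), Gpx1 (0.79), Pgrmc1 (0.76) and albumin (Alb, 0.75), among 6625 genes over 72 libraries. Within BALB/cJ r was 0.54, 0.12, 0.01, 0.21 and 0.72 in the same order. The range was 0.81 to 0.90 in DBA/2J and 0.65 to 0.88 in C57Bl/6J.

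On RC, soleus Vnn1 was lower in BALB/cJ, at -1.86 ± 0.60, than in DBA/2J, at -0.38 ± 1.51, or C57Bl/6J, at -0.42 ± 1.88 (SD, n = 12 each). The differences were -1.44 ± 0.478 against C57Bl/6J (SE, adjusted p = 0.0114 by limma, against 44.5% of genes) and -1.47 ± 0.478 against DBA/2J (SE, 0.011, against 40.4%), and DBA/2J minus C57Bl/6J was 0.03 (0.971, against 37%). The C57Bl/6J libraries on RC include that of 1RC210, used here as soleus although its slow muscle fibre sum was 7.66. All other soleus libraries had 13.68 or more, and its fast fibre sum, 16.63, was the highest. Leaving out any 1 animal changed no call of these strain pairs on RC. None of the 12 BALB/cJ libraries on RC had a hepatocyte sum above 8, against 6 of 12 in DBA/2J and 5 of 12 in C57Bl/6J. Without the 19 libraries above 8 the differences were -0.50 (adjusted p = 0.231) and -0.16 (0.728), and the diet difference was 0.56 (0.0389). With the number range as a covariate BALB/cJ minus C57Bl/6J was -1.18 (0.0553). With the hepatocyte sum as a covariate the differences were -0.80 (0.0421) and -0.76 (0.0602), all by limma. On HFD no pair of strains was called by limma, with -0.45 for BALB/cJ minus C57Bl/6J (adjusted p = 0.495, against 34.7% of genes), 0.11 for BALB/cJ minus DBA/2J (0.879, 38.1%) and -0.57 for DBA/2J minus C57Bl/6J (0.387, 34.5%). Without the 19 libraries above 8, 2 of these pairs were called, with -0.81 for BALB/cJ minus C57Bl/6J (adjusted p = 0.0367 by limma) and -0.91 for DBA/2J minus C57Bl/6J (0.0133).

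**Figure D5:**
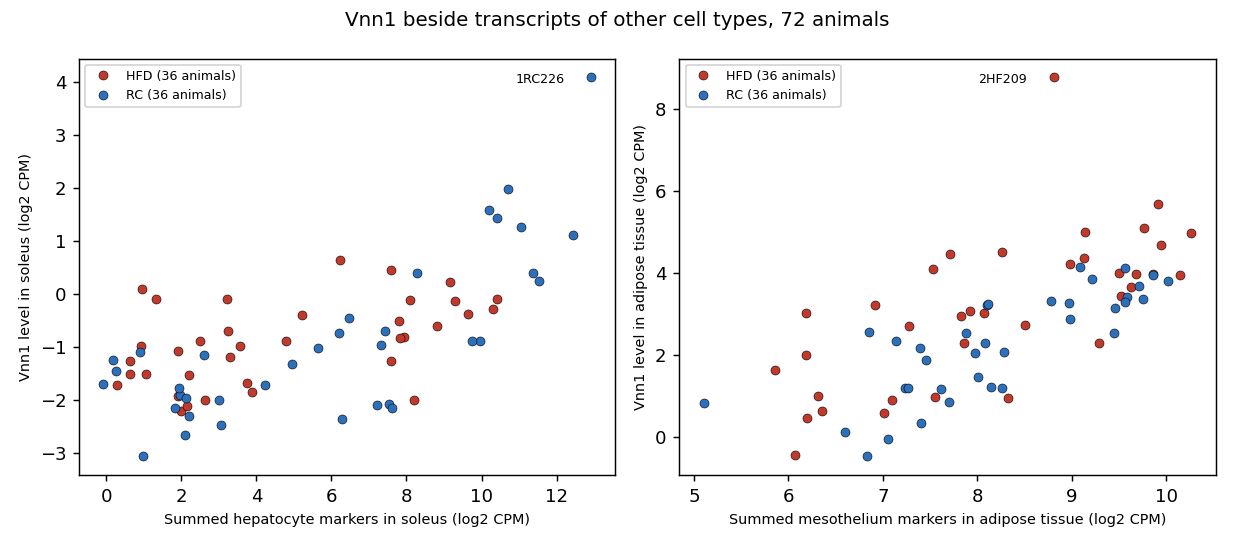
Vnn1 level (log2 CPM) against the summed level of hepatocyte markers in soleus (left) and of mesothelium markers in visceral adipose tissue (right), each point an animal, with HFD and RC in colour. The correlations, taken after group means had been removed, are r = 0.75 on the left and r = 0.63 on the right. The points still hold the group means, and 1RC226 lies highest on the left and 2HF209 on the right.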

How the data were processed

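Of the 224 libraries in the series, 216 from 72 mice were used. Another 8 from liver, of 4 animals, carry an extra letter and were not analysed here. Per the labels' protocols, the mRNA kit was TruSeq Stranded, and single reads were sequenced. The authors used STAR 2.5.3a, edgeR and build GRCm38, per the submitters' processing notes; the read counter and filter are not given in the sources used here. Values were deposited by the authors as log2 CPM with a prior count. The header names start 1 cell early, so each name was assigned to the next column. Whole reads recovered from them (100% of values under 2000 reads, within 0.05) gave the depths and read numbers.

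Each table was fitted whole with limma 3.58.1 (R 4.3.3), with a variance trend, a mean for each of 18 groups and 54 residual degrees of freedom. Genes reaching a log2 CPM of 0 in at least 4 animals were tested. Two-sided p-values were adjusted by Benjamini-Hochberg over every gene tested for the contrast in that tissue, and 0.05 was the threshold. Nothing in the labels says that animals were housed or handled separately, so p-values measure the spread between these animals. The gene, the gene lists and the comparisons were chosen with earlier results of these data known. Named genes were all measured members of the vanin, coenzyme A and cysteamine lists, the members with the 4 smallest p and those of opposite direction in the other lists, the 3 nearest tested genes on each side, and the genes of highest correlation; the values of 1 gene that this rule names are not reported here. The fit was tested on simulated data. Alternatives were other filters, quantile normalization, no variance trend, another prior count, number range or cell type markers as covariates, the replicate number as a block, the compared animals alone, and leaving out each animal; the low read numbers of Vnn1 in soleus limit its precision there.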

Additional observations from a re-analysis of the deposited data

Results flagged for a closer look

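In 5 of the 54 groups 1 animal stood far from the other 3 for Vnn1; chance gives about 1 such group in 20. In liver, DBA/2J animal 2RC203 on RC at day 5 was at 5.10, against 4.49, 4.51 and 4.59. In soleus, C57Bl/6J animal 1RC226 on RC at day 5 was at 4.09, against -1.02, -0.89 and -0.88, and its library had the highest hepatocyte marker sum, 12.92. In adipose tissue, DBA/2J animal 2HF209 on HFD at day 33 was at 8.77, against 4.37, 4.97 and 5.00, and its library had the highest intestinal marker sum, 13.24. Also in adipose tissue, DBA/2J animal 2HF255 on HFD at day 13 was at 2.29, against 3.94, 3.99 and 3.99, and BALB/cJ animal 3RC259 on RC at day 33 was at 2.53, against 1.19, 1.2 and 1.22.

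The liver diet effect on Vnn1 differed between strains (limma, adjusted p = 0.0306), with DBA/2J above C57Bl/6J by 1.5 (adjusted p = 0.0163), and between days in BALB/cJ (adjusted p = 0.0466). With a diet effect for each number range in the model, from 33 HFD and 34 RC livers, the strain difference had an adjusted p of 0.925 by limma. That model was chosen after the values had been seen. It cannot tell strain from range for the DBA/2J animals of days 5 and 33. These p-values make no allowance for the choice of Vnn1 by its liver values.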

How the results depend on the processing

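For 16 results in liver, 11 in soleus and 11 in adipose tissue (the overall diet, strain and day comparisons of Vnn1 and the counts of gene lists), 116 of 124, 111 of 118 and 127 of 129 values under other settings kept their direction and their side of the threshold, or for counts and untested values stayed close to the main value. Single contrasts between groups, and single genes, are not in this tally, and some of them changed. With number range as a covariate, HFD day 33 minus day 13 in liver was 0.91 (adjusted p = 0.0529 by limma), liver DBA/2J minus C57Bl/6J was -1.07 on RC (adjusted p = 0.00154 by limma) and 0.33 on HFD (0.403), the liver diet effect differed between days (0.0375), and soleus BALB/cJ minus C57Bl/6J on RC was -1.18 (0.0553). The liver diet effect was 3.03 within the lower and 0.44 within the upper range. With the diet effect by range as a term, from 33 HFD and 34 RC livers, its strain difference had an adjusted p of 0.925 by limma. Neither this term nor the covariate can tell strain from range for the DBA/2J animals of days 5 and 33. Without the 19 soleus libraries high in hepatocyte transcripts, the soleus diet effect was 0.56 instead of -0.01, BALB/cJ on RC was at -0.50 against C57Bl/6J and -0.16 against DBA/2J, and on HFD DBA/2J and BALB/cJ were at -0.91 (0.0133) and -0.81 (0.0367) against C57Bl/6J. With hepatocyte markers as a covariate, BALB/cJ minus DBA/2J on RC was -0.76. The adipose diet effect was 0.74 without 2HF209. Quantile normalization called 3 cysteamine, cysteine and taurine genes, not 5 (Cdo1 and Fmo1 were lost), and the stricter filter 1 of the PPAR receptors and partners, not 2, since it tested 6 of the 11. For the others the cause was not tested.

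Leaving out each animal gave -0.99 to -0.61 for BALB/cJ minus C57Bl/6J on HFD in liver (7 animals ended the call), adjusted p of 0.0112 to 0.054 for the strain difference of the liver diet effect (1 animal), 0.0348 to 0.252 for days on RC in liver (1 animal) and 0.74 to 0.93 for the adipose diet effect (35 animals). The ranges chosen after seeing the data, and the marker and library settings other than B cell markers, were added later.

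Replicate numbers are shared between diets, but same-numbered animals did not deviate together in every pair: r was -0.43 to 0.59 over 20 pairs in liver (12 above 0.1), -0.85 to 0.76 in soleus (7) and -0.83 to 0.62 in adipose tissue (4). With the replicate block the adipose diet effect was 0.84 (adjusted p = 0.088 by limma); no other overall diet or strain comparison of Vnn1 changed its call.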
